A study of Homo sapiens with 12 samples.

Results

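Phorbol ester receptors are the proteins through which TPA enters the cell's signalling network, and 10 genes from families of such receptors are described here. The protein kinase C (PKC) genes are the conventional PRKCA and PRKCB and the calcium-independent PRKCD, PRKCE, PRKCH and PRKCQ. The RasGRP genes are RASGRP1, RASGRP2, RASGRP3 and RASGRP4. They were chosen by name for what their products do, and all 10 were among the 19775 genes tested. Each gene was read by the probe set, among those annotated to it alone, that had the highest mean over the arrays. The 10 genes had 30 such probe sets, and the other 20 served as a check.

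Diacylglycerol is released at the membrane by phospholipase C and is bound by a zinc finger called the C1 domain. Phorbol esters occupy the same domain and hold many PKC and RasGRP proteins at the membrane. Whether the product of each of the 10 genes binds TPA was not measured here. PKC isoforms then phosphorylate their substrates, while RasGRP proteins load the small GTPases Ras or Rap with GTP and so lead to the RAF-ERK cascade. In cells kept in TPA several PKC proteins are known to be degraded, and RNA levels, which were measured here, do not report on that.

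The cells were U937, an established human myelomonocytic line, transduced either with a vector for EVI1, a transcriptional regulator with zinc fingers that the MECOM locus encodes, or with the empty vector. Both populations were grown in RPMI with serum and received 50 ng/ml TPA or the matching volume of its solvent, ethanol, for 24 h, which gave 4 groups of 3 arrays: empty vector in ethanol, empty vector in TPA, EVI1 vector in ethanol and EVI1 vector in TPA. The 3 arrays of a group are called biological replicates in the design text. Separate transductions are not stated, so p-values measure only the spread between these samples. The promoter of the vector and the number of clones are not given in the sources used here. The 5 MECOM probe sets read 2.59 to 3.32 on all arrays. Expression of EVI1 was therefore not shown on these arrays, and the transduced cells are called EVI1-labelled.

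Levels are log2 signals after RMA, the authors' array normalization, and differences are on the log2 scale with the standard error (SE) of a limma fit over all 12 arrays. A gene is called changed where its limma p-value, adjusted by Benjamini-Hochberg over 19775 genes, is under 0.05. Array medians lay between 5.07 and 5.11. Signal above background cannot be claimed for a group mean below 5.07, and the size of any difference from such a group is uncertain. Of the 10 genes, 7 had every group mean at or above this level, 2 (PRKCH and RASGRP1) had none, and RASGRP3 passed it only in TPA. Of 12 myelomonocytic markers 11 passed it in at least 1 group, FCGR1A being the exception, as did 6 of 11 lymphoid, 4 of 4 erythroid, 4 of 6 megakaryocyte and 4 of 10 epithelial and fibroblast markers. The signal gap between the 3' and 5' ACTB control probe sets, which tracks RNA quality, was 1.72 to 2.01 on the ethanol arrays and 1.17 to 1.64 on the TPA arrays. The mean signal of the myelomonocytic list was 7.33 to 7.47 on the ethanol arrays, 8.55 to 8.78 on the empty vector TPA arrays and 8.22 to 8.33 on the EVI1-labelled TPA arrays. The ACTB gap and this mean moved with the treatment, and their part in the TPA differences was not tested. Single genes of the list did not all follow its mean. In empty vector cells 8 of the 12 were called higher with TPA and 3 lower (LYZ, CEBPA and MPO). In EVI1-labelled cells 6 were called higher and 2 lower (LYZ and MPO). The shares of all genes were 20.7% and 22.5% in the former and 19.4% and 20.6% in the latter. In such bulk RNA, a change in the number of cells of a kind and a change in RNA per cell cannot be told apart.

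TPA changed 5 of the 10 genes in each population, in both directions. In empty vector cells RASGRP3 and PRKCD rose and RASGRP2, PRKCQ and PRKCE fell, and the same 5 genes passed the test in the same directions in EVI1-labelled cells. Against this, 43.2% of all genes tested were called in empty vector cells (20.7% higher, 22.5% lower) and 40.0% after the EVI1 vector (19.4% higher, 20.6% lower), so the count is near the background. The sizes were unequal: RASGRP3 rose by 5.90 ± 0.23 (SE) and RASGRP2 fell by 3.08 ± 0.10 in empty vector cells, while PRKCQ fell by 1.41 ± 0.11, PRKCE fell by 0.79 ± 0.12 and PRKCD rose by 0.43 ± 0.12. The ethanol and TPA arrays did not overlap for 6 of 10 genes in empty vector cells and 5 of 10 in the EVI1-labelled population, against 50.3% and 46.6% of all genes. The median over the 10 genes was 0.06 in empty vector cells and -0.01 in the EVI1-labelled ones, beside 0.02 and 0.00 over all genes.

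**Figure D1:**
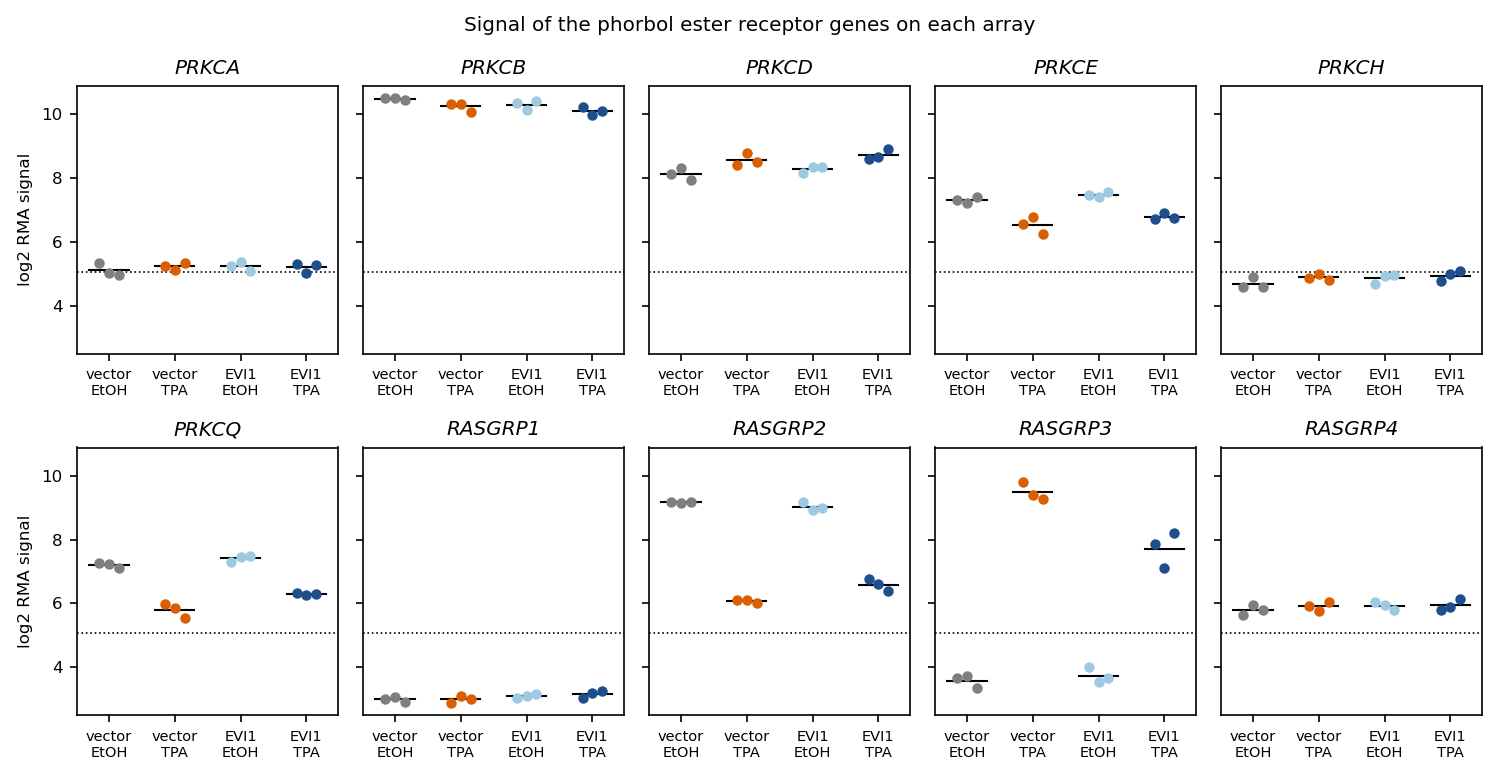
Log2 RMA signal (vertical axis) of each of the 10 genes on the 3 arrays of each group (points; the bar is the group mean), with the dotted line at 5.07, the lowest array median. RASGRP3 stands at 3.36 to 4.02 on the ethanol arrays and 7.10 to 9.81 on the TPA arrays, and RASGRP2 moves the other way; heights are comparable within a gene, not between genes.

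RASGRP3, an exchange factor for Ras and Rap best known from B cells and endothelium, went from near the bottom of the array's range to a high signal. Its levels in empty vector cells were 3.67, 3.73 and 3.36 in ethanol and 9.81, 9.38 and 9.27 in TPA. In EVI1-labelled cells they were 4.02, 3.53 and 3.67 in ethanol and 7.85, 7.10 and 8.21 in TPA. Every TPA array lay above every ethanol array, and every EVI1-labelled TPA array lay below every empty vector TPA array. The rise was 5.90 ± 0.23 in empty vector cells (limma adjusted p = 1.17e-10) and 3.98 ± 0.23 in EVI1-labelled cells (limma adjusted p = 6.67e-09). Both start below 5.07, so their sizes are uncertain.

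The populations did not differ detectably in RASGRP3 before TPA (0.15 ± 0.23, 95% interval -0.35 to 0.66), where both lay below 5.07. In TPA the level was 9.49 ± 0.29 (SD, n = 3) for the empty vector and 7.72 ± 0.57 with EVI1, a 3.40-fold lower signal (-1.77 ± 0.23, limma adjusted p = 2.48e-04). The difference between the responses was itself called, at -1.92 ± 0.33 (limma adjusted p = 0.00956), in a comparison where 1.98% of all genes were called, 0.936% higher and 1.05% lower. The call held without any 1 of the 12 arrays. The other RASGRP3 probe set, 244526_at, stayed at 3.06 to 3.29 in its 4 group means and showed neither the rise (0.22 in empty vector cells, limma adjusted p = 0.352 over all probe sets) nor the population difference.

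RASGRP2, the Rap exchange factor also called CalDAG-GEFI that supports integrin activation in platelets and leukocytes, ran opposite to RASGRP3. Its levels in empty vector cells were 9.17, 9.15 and 9.16 in ethanol and 6.11, 6.11 and 6.03 in TPA. In EVI1-labelled cells they were 9.16, 8.91 and 8.98 in ethanol and 6.77, 6.60 and 6.39 in TPA. Ethanol and TPA arrays did not overlap, and in TPA all 3 EVI1-labelled arrays lay above all 3 empty vector arrays. RASGRP2 fell by 3.08 ± 0.10 in empty vector cells, an 8.44-fold drop (limma adjusted p = 1.8e-11), and fell by 2.43 ± 0.10 in EVI1-labelled cells (limma adjusted p = 2e-10).

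Without TPA the RASGRP2 difference between populations was -0.14 ± 0.10 (95% interval -0.36 to 0.07). In TPA it was 0.50 ± 0.10 higher in EVI1-labelled cells (limma adjusted p = 0.00425). The responses differed by 0.65 ± 0.14 (limma adjusted p = 0.0334), but this call was lost without any of 10 of the 12 arrays, with adjusted p of 0.0545 to 0.0900 in limma. A further RASGRP2 probe set, 214369_s_at, fell by 3.45 in empty vector cells, fell by 1.92 in EVI1-labelled cells and gave a difference in response of 1.53 ± 0.21 (limma adjusted p = 0.00262 over all probe sets). The remaining 2 probe sets, 214367_at and 214368_at, differed with TPA by at most -0.34, and 214367_at was called lower in empty vector cells (-0.34). By their brightest probe sets the 2 RasGRP genes thus moved in opposite directions with TPA, and for both the EVI1-labelled response was the smaller one. The comparisons in TPA, of the responses and of TPA with ethanol share arrays, so these values are not independent of each other.

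RASGRP1, the exchange factor of T cell receptor signalling, lay between 2.89 and 3.26 on all 12 arrays, below the lowest array median, and no difference was called. RASGRP4, an exchange factor of mast cells and myeloid progenitors, had group means of 5.79 ± 0.16 to 5.94 ± 0.18 (SD, n = 3), and its 4 groups overlapped. Its TPA difference was 0.13 ± 0.12 in empty vector cells (95% interval -0.13 to 0.38). A dimmer RASGRP4 probe set, 240862_at, singled out after its values were seen, read 4.29, 4.50 and 4.34 in ethanol and 4.92, 5.22 and 4.88 in TPA in empty vector cells. It read 4.59 to 4.69 on the 6 EVI1-labelled arrays, and all of its group means, 4.38 to 5.01, lay below 5.07. It was called higher with TPA in empty vector cells (0.63, limma adjusted p = 1.3e-04 over all probe sets), not in EVI1-labelled cells (0.01), and the difference between those responses missed the threshold (-0.62 ± 0.14, limma adjusted p = 0.0567). In TPA this probe set was called lower in EVI1-labelled cells (-0.36, limma adjusted p = 0.0439 over all probe sets).

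**Figure D2:**
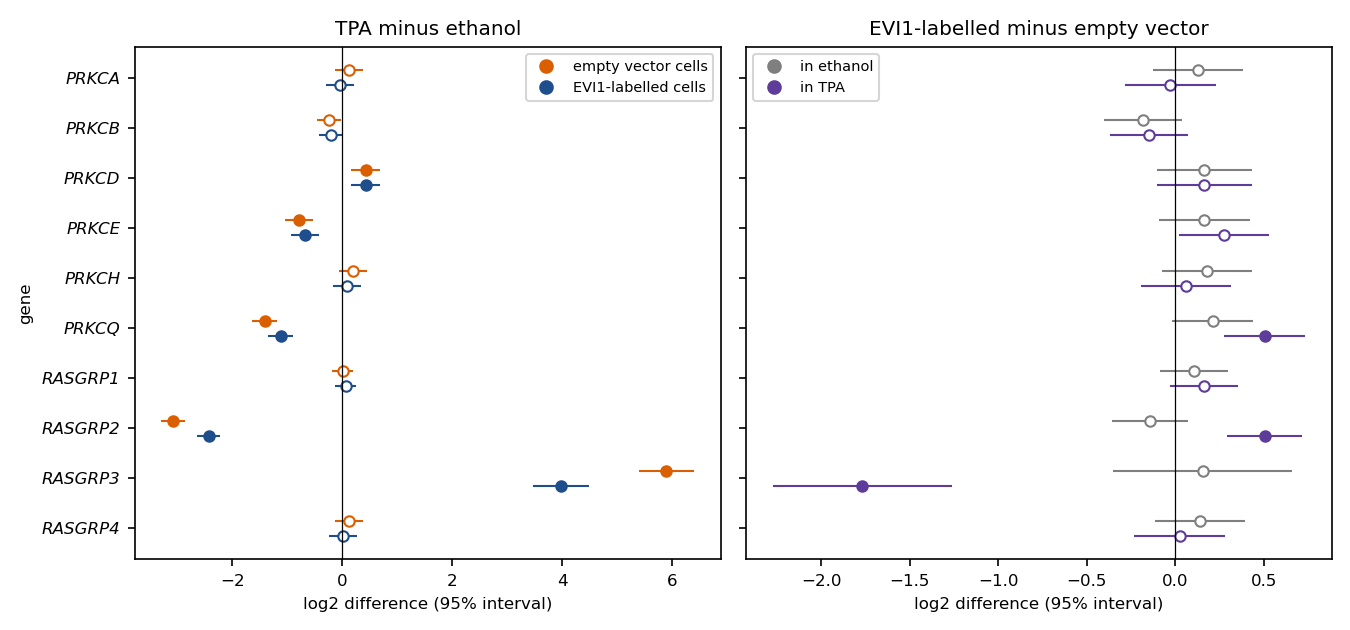
Log2 difference (horizontal axis) of each gene with its 95% interval from the limma fit, for TPA minus ethanol in each population (left) and EVI1-labelled minus empty vector in each treatment (right); filled points passed the adjusted threshold. Of the 10 genes 5 are filled on the left in both colours, and on the right RASGRP3, RASGRP2 and PRKCQ are filled in TPA and none in ethanol.

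PRKCB, a conventional isoform that is abundant in myeloid and B cells, had the brightest probe set of the 6 PKC genes, a fact of the probes as much as of the RNA. Its 12 readings lay between 9.96 and 10.50. With TPA it was lower by a small amount that missed the threshold, at -0.24 ± 0.10 in empty vector cells (limma adjusted p = 0.0801) and -0.20 ± 0.10 in EVI1-labelled cells (limma adjusted p = 0.144). The former was called (limma adjusted p = 0.0455) when only genes with a mean above the median of all gene means were tested. None of its 6 probe sets was called in any comparison.

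PRKCA, the other conventional isoform, gave different readings by probe set. The brightest, 1560074_at, lay between 4.96 and 5.36 on all arrays and was not called, with a TPA difference of 0.12 ± 0.12 in empty vector cells. Probe set 213093_at, singled out after its values were seen, read 3.58, 3.30 and 3.58 in empty vector ethanol arrays and 7.09, 6.08 and 6.37 in TPA. In EVI1-labelled cells it read 3.53, 3.47 and 3.20 in ethanol and 5.96, 4.89 and 5.26 in TPA. The TPA arrays of this probe set lay above the ethanol arrays without overlap, and the 3 EVI1-labelled TPA arrays lay below the 3 empty vector ones.

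By 213093_at PRKCA rose by 3.03 in empty vector cells (limma adjusted p = 2.93e-07 over all probe sets) and by 1.97 in EVI1-labelled cells (limma adjusted p = 2.62e-05 over all probe sets). In TPA it was lower in EVI1-labelled cells (-1.14, limma adjusted p = 0.0148 over all probe sets), while the difference between the responses did not pass (-1.06 ± 0.36, limma adjusted p = 0.279). Its ethanol levels were below 5.07, so the sizes are uncertain. Of the remaining PRKCA probe sets, 215195_at was called higher in empty vector cells (0.44), with group means of 4.39 to 4.83, all below 5.07. Probe sets 215194_at and 206923_at were not called in any comparison. Where each probe set lies along the transcript was not analysed here.

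PRKCQ, the isoform of the T cell synapse, had the largest PKC change by the brightest probe sets. Its levels in empty vector cells were 7.27, 7.22 and 7.11 in ethanol and 5.97, 5.87 and 5.53 in TPA. In EVI1-labelled cells they were 7.30, 7.46 and 7.47 in ethanol and 6.34, 6.25 and 6.29 in TPA. PRKCQ fell by 1.41 ± 0.11 in empty vector cells (limma adjusted p = 6.53e-08) and fell by 1.12 ± 0.11 in EVI1-labelled cells (limma adjusted p = 8.43e-07), with no overlap of the groups in either.

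After TPA PRKCQ was 0.50 ± 0.11 higher in EVI1-labelled cells (limma adjusted p = 0.00705). In ethanol the EVI1-labelled arrays also lay above the empty vector arrays, by 0.21 ± 0.11, which was not called (limma adjusted p = 0.456). The difference between the responses was 0.29 ± 0.15 (limma adjusted p = 0.459). The other PRKCQ probe set, 210039_s_at, also fell in both populations (-0.67 and -0.66), but its population difference in TPA was 0.22 (limma adjusted p = 0.273 over all probe sets). The T cell markers CD3E and CD3G had group means of 4.66 to 4.87 and 3.67 to 3.70, under the lowest array median, and CD3D of 5.34 to 5.54. The lymphoid list as a whole averaged 4.83 to 5.13 on the ethanol arrays and 4.73 to 4.93 on the TPA arrays, and of its 11 members the B cell factor PAX5 fell with TPA in both populations while NCAM1 rose in empty vector cells. The list's part in the fall of PRKCQ was not tested.

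PRKCE, a calcium-independent isoform linked to macrophage activation, read 7.31, 7.23 and 7.41 in ethanol and 6.56, 6.77 and 6.24 in TPA in empty vector cells. In EVI1-labelled cells it read 7.48, 7.40 and 7.56 in ethanol and 6.73, 6.92 and 6.74 in TPA. It fell by 0.79 ± 0.12 in empty vector cells (limma adjusted p = 5.9e-05) and fell by 0.68 ± 0.12 in EVI1-labelled cells (limma adjusted p = 2.52e-04). Between the populations it differed by 0.16 ± 0.12 in ethanol and 0.27 ± 0.12 in TPA, neither of them called, though the latter was called without replicate 2 of the empty vector in TPA (0.40, limma adjusted p = 0.0473). Probe set 236459_at fell as well (-0.62 and -0.59), while 234089_at and 206248_at were not called.

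PRKCD, an isoform tied to monocyte differentiation and apoptosis, was the only PKC gene called higher by its brightest probe set. It read 8.13, 8.32 and 7.94 in ethanol and 8.40, 8.77 and 8.50 in TPA in empty vector cells. The EVI1-labelled arrays read 8.17, 8.35 and 8.36 in ethanol and 8.60, 8.66 and 8.90 in TPA. It rose by 0.43 ± 0.12 in both, with limma adjusted p of 0.0113 and 0.0121, and the difference between the responses was 0.00 with a 95% interval of -0.38 to 0.38. In empty vector cells the call was lost without replicate 3 in ethanol (0.33, limma adjusted p = 0.0630) or replicate 2 in TPA (0.32, 0.0606). In EVI1-labelled cells it was lost without replicate 1 in ethanol (0.365, limma adjusted p = 0.0587) or replicate 3 in TPA (0.34, 0.0563).

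PRKCH, an isoform of epithelia and lymphocytes, lay between 4.58 and 5.08 on all arrays, with every group mean below the lowest array median, and was not called. Its probe set 218764_at was called higher with TPA in empty vector cells (0.62, limma adjusted p = 0.00938 over all probe sets), with group means of 3.23 to 3.94, all below 5.07.

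**Figure D3:**
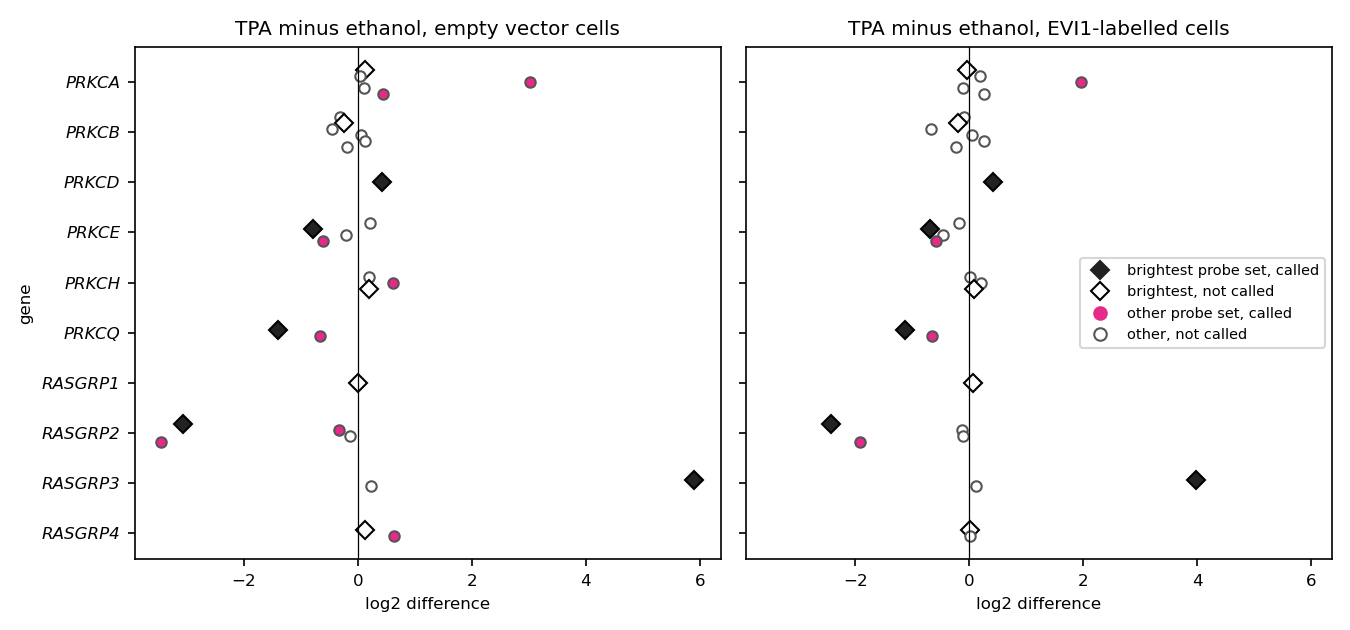
Log2 difference, TPA minus ethanol (horizontal axis), for each of the 30 probe sets of the 10 genes in empty vector (left) and EVI1-labelled cells (right). Diamonds are the brightest probe set of a gene, circles the others, and filled symbols were called over all probe sets; PRKCA has a circle at 3.03 on the left and 1.97 on the right while its diamond stays near 0.

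Between the populations, none of the 10 genes was called in ethanol, with differences of -0.18 to 0.21, where limma called 3.27% of all genes (1.32% higher, 1.95% lower), and no member had an unadjusted p under 0.05. In TPA 3 of 10 were called, RASGRP2 and PRKCQ higher and RASGRP3 lower in EVI1-labelled cells, where 11.2% of all genes were called, 5.90% higher and 5.30% lower. The populations did not overlap for 2 of 10 genes in ethanol and 3 of 10 in TPA, against 22.0% and 22.4% of all genes. The mean signal of the myelomonocytic list also separated the populations in TPA without overlap (8.55 to 8.78 on empty vector and 8.22 to 8.33 on EVI1-labelled arrays), and its part in the RASGRP3, RASGRP2 and PRKCQ differences was not tested. Of the 12 genes of that list 4 were called lower in EVI1-labelled cells in TPA, 1 (CEBPA) was called higher and 7 were not called. The difference between responses was called for 2 of the 10 genes, RASGRP2 and RASGRP3, against 1.98% of all genes. The RASGRP2 call was lost without any of 10 of the 12 arrays. In order of level over the 4 groups, RASGRP3 ran from empty vector in ethanol and EVI1-labelled in ethanol, which were not told apart, to EVI1-labelled in TPA and then empty vector in TPA. RASGRP2 ran from empty vector in TPA to EVI1-labelled in TPA and then to the 2 ethanol groups, which were not told apart. PRKCQ had the same order as RASGRP2, with the EVI1-labelled ethanol group at the top but not called apart from the other ethanol group. The megakaryocyte list, of interest because RASGRP2 is a platelet gene, averaged 4.80 to 4.91 on the ethanol arrays, 5.71 to 5.90 on the empty vector TPA arrays and 4.99 to 5.28 on the EVI1-labelled TPA arrays. Of its 6 members 1, PPBP, was called higher with TPA, and its part in the RASGRP2 difference was not tested.

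Promoter windows of 300 bases, 250 before and 50 after each start, were taken from RefSeq (GRCh38.p14) for all members, since AP-1 sites are the classical TPA response elements. All 10 genes matched, with 15 windows in all, 4 of them for RASGRP3. Those of RASGRP3, RASGRP2 and PRKCQ are shown because these genes had the largest TPA differences, and that of PRKCA because its probe set 213093_at rose while its brightest one did not. The 4 sequences are 5′ to 3′ in gene direction, with matches to SP1 (GGGCGG) or the PU.1 core (GAGGAA), on either strand, in capitals. For RASGRP3 the most upstream of its 4 windows is shown, and which start these cells use was not measured.
RASGRP3 (chr2:33436098-33436397, plus strand): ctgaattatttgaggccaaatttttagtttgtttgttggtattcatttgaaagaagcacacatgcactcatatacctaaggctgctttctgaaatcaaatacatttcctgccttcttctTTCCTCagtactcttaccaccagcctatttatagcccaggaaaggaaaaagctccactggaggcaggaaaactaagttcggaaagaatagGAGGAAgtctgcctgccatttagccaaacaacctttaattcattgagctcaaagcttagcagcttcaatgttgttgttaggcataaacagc
RASGRP2 (chr11:64745299-64745598, minus strand): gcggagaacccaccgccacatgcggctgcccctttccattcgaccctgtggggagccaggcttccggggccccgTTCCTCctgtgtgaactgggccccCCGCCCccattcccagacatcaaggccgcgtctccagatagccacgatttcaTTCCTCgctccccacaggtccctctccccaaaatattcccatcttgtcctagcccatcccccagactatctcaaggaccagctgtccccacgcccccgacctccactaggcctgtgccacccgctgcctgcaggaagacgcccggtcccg
PRKCA (chr17:66302363-66302662, plus strand): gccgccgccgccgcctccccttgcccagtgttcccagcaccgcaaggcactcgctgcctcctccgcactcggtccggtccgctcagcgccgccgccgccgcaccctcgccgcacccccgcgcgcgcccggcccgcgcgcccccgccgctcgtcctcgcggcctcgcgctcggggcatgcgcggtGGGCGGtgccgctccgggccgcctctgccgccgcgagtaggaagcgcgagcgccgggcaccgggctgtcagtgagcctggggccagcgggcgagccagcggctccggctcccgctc
PRKCQ (chr10:6580597-6580896, minus strand): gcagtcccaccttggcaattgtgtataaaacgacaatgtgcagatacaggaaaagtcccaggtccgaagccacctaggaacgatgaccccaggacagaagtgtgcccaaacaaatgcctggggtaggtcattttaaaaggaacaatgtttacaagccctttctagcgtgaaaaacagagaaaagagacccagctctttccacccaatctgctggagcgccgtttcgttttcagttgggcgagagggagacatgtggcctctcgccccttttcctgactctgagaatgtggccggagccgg

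None of the 15 windows held the AP-1 letters TGANTCA, which 7.71% of 35116 RefSeq windows of this length hold, nor the CRE letters TGACGTCA (1.85%) nor the EVI1 letters GACAAGATA (0.0968%). The SP1 letters stood in 9 of 15 windows, against 45.0% of all windows. The PU.1 letters stood in 4 of 15, against 27.9%: a pair of matches each in the RASGRP3 window shown and in RASGRP2, and 1 each in PRKCE and RASGRP4. No matches overlapped. The PRKCQ window held none of the 5 motifs, and that of PRKCA held 1 SP1 match. A match or its absence concerns these letters in these windows alone.

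The genes whose signals ran most like those of the called members over the 12 arrays were found among 13115 genes that passed 5.07 in some group. For RASGRP3 these were TRIO, IL1B and ACOT9 (Pearson's r = 0.997, 0.997 and 0.996). For RASGRP2 they were PRPS2, SUPT16H and EZH2 (r = 0.999, 0.998 and 0.998). For PRKCQ they were BASP1, CCDC169 and RFX5-AS1 (r = 0.992, 0.990 and 0.990), and for PRKCE ZNF512, ASPHD2 and RFX5-AS1 (r = 0.989, 0.985 and 0.985). PRKCD was most like FXR2, GABARAP and NUP214, at the lower values of r = 0.960, 0.956 and 0.956. The 12 points share their treatment, so r mostly reflects the step from ethanol to TPA and is a description.

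The rest of the diacylglycerol and Ras pathway was read from lists chosen by function. Of 24 genes of Ras, its exchange and GTPase activating factors and the RAF-ERK cascade, 14 rose and 3 fell with TPA in empty vector cells, and 12 rose and 2 fell in EVI1-labelled cells, against 20.7% of all genes higher and 22.5% lower in the former and 19.4% and 20.6% in the latter. The list's median was 0.59 and 0.33, beside 0.02 and 0.00 for all genes. The Rap exchange factor RAPGEF1 rose by 1.77 ± 0.13 in empty vector cells, the GTPase activating protein RASA3 by 1.49 ± 0.07, the Ras exchange factor SOS2 by 1.36 ± 0.09 and the ERK kinase MAP2K1 by 1.14 ± 0.08. In EVI1-labelled cells the same 4 rose by 1.69 ± 0.13, 1.55 ± 0.07, 1.36 ± 0.09 and 0.85 ± 0.08. The GTPase gene MRAS fell by 0.70 ± 0.13 in empty vector cells and was at -0.01 ± 0.13 in EVI1-labelled cells, a difference between responses that was not called by limma.

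Diacylglycerol kinases, which remove diacylglycerol by phosphorylating it, gave calls in both directions: 5 of 10 rose and 3 fell in empty vector cells, and 5 rose and 2 fell in EVI1-labelled cells, against the all-gene shares of 20.7% and 22.5%, and 19.4% and 20.6%. DGKQ rose by 1.53 ± 0.10 and DGKA by 1.46 ± 0.10 in empty vector cells, and DGKE fell by 1.23 ± 0.12. In EVI1-labelled cells DGKQ rose by 1.48 ± 0.10 and DGKE fell by 1.08 ± 0.12. DGKQ was lower in EVI1-labelled than in empty vector cells in ethanol (-0.48 ± 0.10, limma adjusted p = 0.0174) and in TPA (-0.54 ± 0.10, limma adjusted p = 0.00335), and its responses differed by -0.05 ± 0.14. The ethanol call was lost without replicate 2 or 3 of the EVI1-labelled cells or replicate 1 or 2 of the empty vector cells in ethanol, with limma adjusted p of 0.0582 to 0.0979.

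Of 13 phospholipase C genes 2 rose and 3 fell in empty vector cells and 3 rose and 3 fell in EVI1-labelled cells, against all-gene shares of 19.4% to 22.5% in each direction. PLCB2, the isoform of chemoattractant receptors in myeloid cells, rose by 1.48 ± 0.10 and 1.33 ± 0.10 in the 2 populations. PLCB1, another receptor-coupled isoform, fell by its brightest probe set (-1.58 ± 0.17 and -2.03 ± 0.17) but not by the median over its probe sets, each centred on its own mean (-0.03 and -0.07). PLCL2, a relative without catalytic activity, fell in both (-1.07 ± 0.19 and -1.16 ± 0.19). Of 19 PKC substrates, anchors and regulators 4 rose and 5 fell in empty vector cells and 6 rose and 4 fell in EVI1-labelled cells, where the all-gene shares were 20.7% and 22.5%, and 19.4% and 20.6%. MARCKS, the best known PKC substrate at the membrane, fell in both (-2.24 ± 0.17 and -2.53 ± 0.17), while its relative MARCKSL1 rose by 1.13 ± 0.13 in empty vector cells. PPP1R14C, a phosphatase inhibitor switched on by PKC, rose by 1.61 ± 0.21 and 1.93 ± 0.21. PEBP1, which holds back RAF until PKC phosphorylates it, fell in both (-1.25 ± 0.09 and -1.21 ± 0.09).

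The list of other phorbol ester receptors held 8 measured genes, of which UNC13D is a relative that lacks the C1 domain. Of the remaining 7, 2 rose in empty vector cells, UNC13B by 0.27 ± 0.08 and CHN1 by 0.44 ± 0.14. In EVI1-labelled cells none rose and 1 fell, PRKD1 (-0.26 ± 0.10, limma adjusted p = 0.0491). The PRKD1 group means were 3.24 to 3.50, all below 5.07, and its ethanol and TPA arrays overlapped. For this list and those of kinases and adaptors below, the all-gene shares were 20.7% higher and 22.5% lower in empty vector cells. In EVI1-labelled cells they were 19.4% and 20.6%. UNC13D itself rose in EVI1-labelled cells (0.34 ± 0.11, limma adjusted p = 0.0219). The CHN1 call was lost without replicate 1 in ethanol (limma adjusted p = 0.0819) or replicate 3 in TPA (0.0876) of empty vector cells. Of 4 kinases related to PKC that do not bind phorbol esters, PKN3 (-0.41 ± 0.10 and -0.42 ± 0.10) and PRKCZ (-0.55 ± 0.17 and -0.60 ± 0.17) fell in both populations, and the other 2 were not called. The PRKCZ call was lost without replicate 2 in ethanol (limma adjusted p = 0.0969) or replicate 3 in TPA (0.0997) of empty vector cells, and without replicate 2 in TPA of EVI1-labelled cells (0.0652). Of 4 adaptors that link PKC to NF-kB in lymphoid and myeloid cells, the protease gene MALT1 rose by 1.91 ± 0.12 and 2.10 ± 0.12 and BCL10 by 0.77 ± 0.09 and 0.53 ± 0.09.

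**Figure D4:**
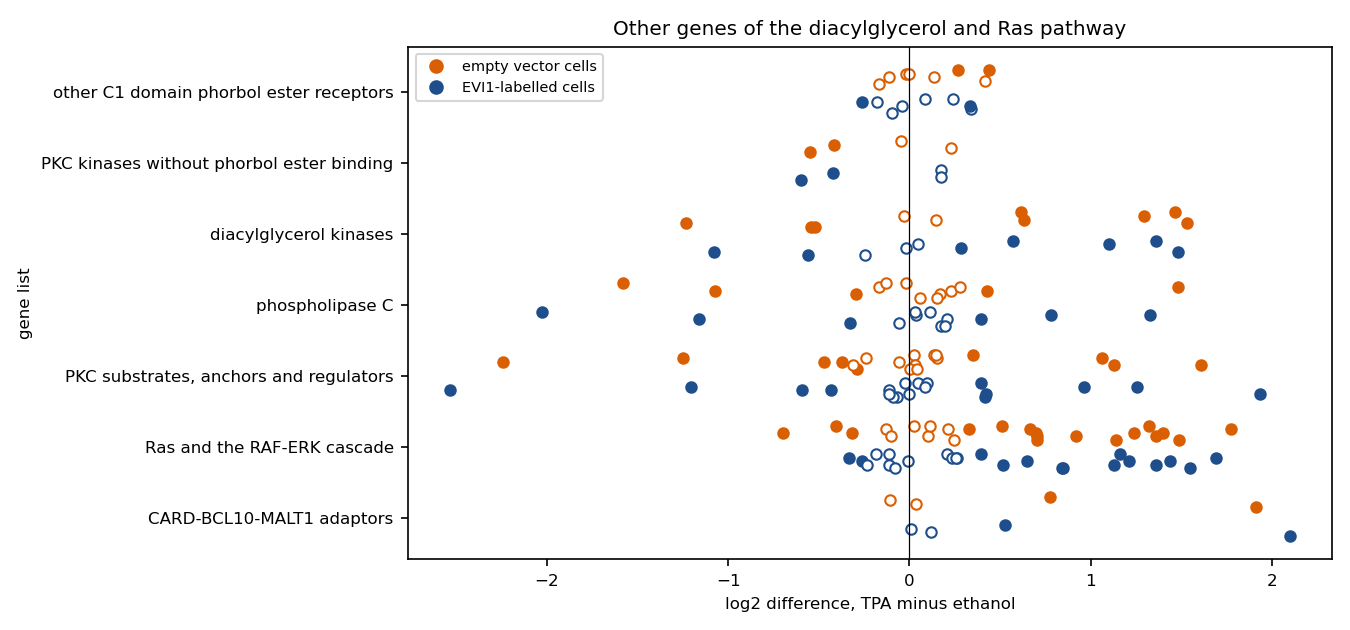
Log2 difference, TPA minus ethanol (horizontal axis), for each gene of the 7 pathway lists (rows) in empty vector (upper band) and EVI1-labelled cells (lower band); filled points passed the adjusted threshold. Among Ras and RAF-ERK genes 14 filled points lie above 0 and 3 below in empty vector cells.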

How the data were processed

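RNA from the 12 samples was labelled from 250 ng by 3' in vitro transcription and hybridised to arrays, per the labels' protocols. The authors deposited log2 signals, for which the submitters' processing notes name RMA and Affymetrix Expression Console 1.3. The sources used here do not state if the 12 arrays went through RMA in a single run. RMA forces arrays to 1 distribution, so shifts shared by most genes are removed. Of 54675 probe sets, 41097 were annotated to 1 gene, 1801 to several and 11777 to none. The first kind gave 19775 genes, symbols being updated through a RefSeq table.

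Differences were fitted with limma 3.58.1 in R 4.3.3 (1 mean per group, two-sided, 8 residual degrees of freedom and 5.22 from the prior, Benjamini-Hochberg at 0.05). The number of arrays limits the precision: the median SE was 0.11, and 0.15 for a difference in response. In simulated data with independent noise, 200 of 19775 genes were changed at each of the sizes 0.5, 1 and 2. For TPA in empty vector cells 69.0%, 97.5% and 99.0% of these changes were recovered, and 38.5%, 90.0% and 98.5% for the difference in response. In the real arrays 43.2% of all genes were called for TPA in empty vector cells, a far larger share, so the simulated rates may not hold there.

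Members and lists were chosen with earlier results of these data known, as was the 5.07 level. From each list the text names part of the called genes with the largest differences and no overlap; SOS2, PRKCQ-AS1, PRKD1, UNC13D and single probe sets of RASGRP4 and PRKCA were chosen after their values were seen. Likeness was the 3 highest correlations. Alternatives covered the probe set, filters, normalization, variance prior, samples, array weights, a replicate block and each array left out. A median over probe sets centred on their own means was added after the data were seen. A search of proteins for C1 domains was not run.

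Replicate numbers are shared between groups. Same-numbered arrays correlated in their deviations from group means at 0.415, 0.130 and 0.151 between the populations in TPA, and in no other comparison did all 3 numbers pass 0.1. In those other comparisons same-numbered arrays still correlated more than arrays of different numbers, at 0.0753 to 0.208. Pairs were thus read from the data alone, since no label states them. The differences given in the text come from the fit without pairs, and a replicate block was an alternative whose values are given below.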

Additional observations from a re-analysis of the deposited data

Results flagged for a closer look

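The response to TPA differed between the populations by the test of the difference itself for 2 of the 10 genes and 1 pathway gene. In this comparison 1.98% of all genes were called. For RASGRP3 the EVI1-labelled response was smaller (-1.92 ± 0.33, limma adjusted p = 0.00956), a rise of 3.98 beside one of 5.90. For RASGRP2 the difference was 0.65 ± 0.14 (limma adjusted p = 0.0334), a fall to 6.59 in EVI1-labelled cells beside one to 6.08. This RASGRP2 call was lost without any of 10 of the 12 arrays. ADD3, an adducin of the membrane skeleton phosphorylated by PKC, rose by 0.96 ± 0.13 in EVI1-labelled cells and stood at 0.15 ± 0.13 in empty vector cells, a difference of 0.81 ± 0.18 (limma adjusted p = 0.0356). The ADD3 call was lost without any of 8 of the 12 arrays and by the median of its probe sets, each centred on its mean (0.62, limma adjusted p = 0.207).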

How the results depend on the processing

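Each array left out in turn gave 4 to 5 called members for TPA in either population, 0 in ethanol, 3 to 4 in TPA and 1 to 2 for the difference in response, where RASGRP2 was the call lost. With the replicate number as a block the counts were 5, 5, 0, 3 and 2, and no member changed its call; in TPA RASGRP3 was at -1.77 (limma adjusted p = 2.99e-04), RASGRP2 at 0.50 (0.00296) and PRKCQ at 0.50 (0.00839). The block lost the KSR1 call for TPA in EVI1-labelled cells and gained MARCKSL1 in the difference in response (-0.71). Shares of all genes called were not counted with an array left out or with the block.

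The choice of probe set had the largest effect. The median of each gene's probe set levels gave 8 called members for TPA in empty vector cells (5 higher, 3 lower), but this median can fall on different probe sets in ethanol and TPA, so its sizes are not a change of 1 probe set. With each probe set first centred on its mean, an alternative added after the data were seen, 7 were called (4 higher, 3 lower), PRKCA (0.22) and RASGRP4 (0.38) joining the 5. The share of all genes called under either median was not counted, so the 8 and the 7 have no background beside them. The RASGRP4 value draws in part on 240862_at, whose group means were all below 5.07. PRKCA in EVI1-labelled cells was at -0.03 by its brightest probe set, 1.97 by 213093_at, 0.75 by the median of levels and 0.23 by that of centred values. PRKCH between the populations in TPA was at 0.06, -0.44 by levels and -0.15 centred, and called only by levels. Signs also turned for PRKCE by 206248_at (0.21 for TPA in empty vector cells, not called) and RASGRP4 by 240862_at (-0.36 between the populations in TPA, called at limma adjusted p = 0.0439 over all probe sets). ARAF for TPA in empty vector and EVI1-labelled cells went from -0.40 and -0.18 to 0.10 and 0.31 by both medians. PLCB1 went from -1.58 and -2.03 to 0.29 and 0.13 by levels and -0.03 and -0.07 centred. KSR1 for TPA in empty vector cells went from -0.32 to 0.0283 by levels and -0.02 centred. PKN2 between populations in TPA went from 0.38 to -0.10 by levels and 0.20 centred.

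Of 460 member differences under single settings, the probe sets one by one aside, 451 kept their status, called or not, and of 600 with an array left out, 585 did. Most of these differences were not called as reported, and each left-out array was also scored for comparisons it has no part in. Both raise these shares. Depth has no count here: signals under 5.07 limit RASGRP1, PRKCH, the ethanol levels of RASGRP3 and the dimmer probe sets of PRKCA and RASGRP4.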

Other observations

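The antisense transcript PRKCQ-AS1 had its own probe sets, the brightest of which fell with TPA by 2.00 ± 0.14 in empty vector cells (limma adjusted p = 2.07e-08) and fell by 1.63 ± 0.14 in EVI1-labelled cells (limma adjusted p = 2.09e-07), from means of 7.49 and 7.51 to 5.49 and 5.88, beside differences of -1.41 and -1.12 for PRKCQ. The strand of the probes was not checked. PRKCA-AS1 lay below the lowest array median in all groups, with means of 2.79 to 3.07.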
